A study of Mus musculus with 7 samples.

Results

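The array used in this mouse study carried 16194 probes that are named by a chromosome range rather than by a gene, which is 29.1% of its 55681 non-control probes. Such probes are meant to query stretches from which noncoding transcripts are thought to arise. Whether each range lies between annotated genes was not checked. The probes were chosen by name: every non-control probe whose systematic name in the scanner files holds a chromosome, a start and an end was a member. No measured value entered that rule, but the set was chosen for description with earlier results of these data known. Coordinates are those of the array design, on mouse build mm9 per the file headers. The names cover 3543 distinct ranges on 20 chromosomes. A trailing letter, F or R, is defined in neither the labels nor the file headers and is taken to mark the strand. Of the ranges, 1251 had only probes lettered F, 1222 had only probes lettered R, 1067 had both and 3 had no letter, and 2101 of the ranges overlapped another. Range length had a median of 7304 bp, from 62 to 7128487 bp, so a range can span far more than 1 transcript. A lettered range held a median of 3 probes, from 1 to 10, and probes of 1 range or of overlapping ranges are not independent of each other.

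The study compared dendritic cells (DCs, the cells that present antigen to T cells) grown from common myeloid progenitors (CMPs) with and without Gata2, a zinc finger transcription factor of blood stem cells and myeloid progenitors. The 3 arrays labelled knockout came from Gata2(f/f)/ER-Cre mice and the 4 control arrays from Gata2(f/f) mice, both on the C57BL/6 strain background. Mice of both genotypes received tamoxifen between day 1 and day 10, so the controls also carry the floxed allele and saw the drug, but no Cre. ER-Cre is a recombinase that tamoxifen activates, and the labels do not name the promoter that drives it. CMPs sorted on day 20 to 22 were grown on feeder cells from bone marrow of SJL mice with FLT3-L at 200 ng/ml, and the labels do not say how the DCs were parted from the feeders. The labels do not say whether replicates came from separate mice, so a p-value here weighs a difference against the spread of these arrays alone, which may be technical. All 7 arrays sit on 1 slide with each group in a row of its own, so the slide row, the Cre and the group cannot be told apart.

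The Gata2 probe was brighter, not dimmer, in the arrays labelled knockout. Its log2 signal, relative to each array's 75th percentile as all levels below are, was 2.93, 3.00 and 3.06 there and -0.25, 0.24, 0.36 and 0.34 in the controls, a difference of 2.82 (limma adjusted p = 0.000416). The labels do not place this probe inside or outside the deleted part of the gene, and directions below are those of the labels. Of 9 DC markers, 9 were measured, with a median difference of -0.18, and at an unadjusted p under 0.05 limma called 1 of them but none after adjustment. The log2 of their summed signal was 8.27 to 8.49 in the knockout arrays and 8.46 to 8.73 in the controls. In this measure, also used for the ranges in brackets below, the brightest genes weigh most. Markers of several other cell types moved with the groups in limma. Of 6 mast cell and basophil markers 5 were lower in the arrays labelled knockout (log2 of summed signal 2.85 to 3.37 against 4.12 to 4.85). The other, Kit, was at 2.70, 3.29 and 2.76 in the knockout arrays and did not pass (difference -0.20, limma adjusted p = 0.739). Of 6 measured monocyte and macrophage markers 4 were lower (5.47 to 5.78 against 6.18 to 6.46). Of 6 T cell markers 3 were higher, namely Lck, Tcf7 and Rag1 (2.59 to 2.73 against 1.02 to 1.15 over the 6). The other 3, the CD3 chains Cd3d, Cd3e and Cd3g, did not pass. Their differences were 0.01, -0.05 and 0.72 (limma adjusted p = 0.994, 0.93 and 0.744). The 6 neutrophil markers had a median difference of -2.08, and 6 passed an unadjusted p under 0.05 but 0 after adjustment (5.00 to 5.50 against 5.64 to 5.89). The 5 markers of megakaryocytes and platelets had a median of -0.91, with 3 at an unadjusted p under 0.05 and 0 after adjustment (4.69 to 5.00 against 5.47 to 6.13). The part of these markers in the results below was not tested, and in bulk RNA fewer cells of a type and less RNA per cell cannot be told apart.

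Long intergenic noncoding RNAs (lincRNAs) are spliced, polyadenylated transcripts without a protein product, made by RNA polymerase II from loci whose promoters and bodies carry the chromatin marks of active genes. Many are made at low levels and in few cell types, and some act on the gene beside them while others act elsewhere in the nucleus. Several of the best studied lie next to genes that steer the cell cycle: Trp53cor1 (lincRNA-p21), induced by p53, lies beside Cdkn1a, and Pvt1 lies beside Myc.

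The promoters of 2 genes that lie, from general knowledge, beside ranges that changed are printed for illustration. They come from the RefSeq table of build GRCm38.p6 and were chosen after the values were seen. The sequences of the ranges themselves, which would need an mm9 genome, are not printed. Both windows below hold 300 bases around the start, and they are not used to place an mm9 range. The first is a Cdkn1a window with a p53-type core in capitals (CATG, then 6 bases of any kind, then CATG, at positions 203 to 216). It was picked because it holds the core, and the other Cdkn1a window in the table (chr17:29093519-29093818) has 0 matches. The second is that of 2610307P16Rik, the noncoding gene known from the neighbourhood of Sox4.
Cdkn1a (GRCm38.p6, chr17:29090729-29091028, + strand): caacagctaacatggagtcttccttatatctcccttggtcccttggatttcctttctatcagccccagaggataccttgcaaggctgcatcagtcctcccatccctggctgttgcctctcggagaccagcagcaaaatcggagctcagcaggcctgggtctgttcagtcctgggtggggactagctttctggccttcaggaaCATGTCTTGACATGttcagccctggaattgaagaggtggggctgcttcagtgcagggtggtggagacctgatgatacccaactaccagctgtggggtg
2610307P16Rik (GRCm38.p6, chr13:28885373-28885672, - strand): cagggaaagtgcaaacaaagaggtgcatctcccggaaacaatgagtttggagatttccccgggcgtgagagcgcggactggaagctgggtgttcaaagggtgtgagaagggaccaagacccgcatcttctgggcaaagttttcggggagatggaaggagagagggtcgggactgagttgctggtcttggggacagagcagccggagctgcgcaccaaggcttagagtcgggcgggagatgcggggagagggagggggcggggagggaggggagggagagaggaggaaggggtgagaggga
The core reads the same on both strands and occurs in 234 of 32851 windows of this length, or 0.712%. The GATA word AGATAA, searched on both strands, had no match in either window, and 11.2% of all windows hold it. A match is a description of the letters and not a site.

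Most range probes were dim. Feature Extraction flags a spot as well above background on each array, and 5482 members (33.9%) carried that flag on no array while 5441 (33.6%) carried it on all 7. Among the other probes the shares were 23.3% and 56.4%. Probes flagged on at least 3 arrays were tested, which left 8042 members (49.7%) and 66.1% of the others. Of the members, 985 passed with exactly 3 arrays and 1031 missed with exactly 2. The tested members came from 2781 of the 3543 ranges. Of 3385 lettered ranges with 3 or more probes, 673 (19.9%) had every probe tested, 599 (17.7%) had none, and 2113 (62.4%) had some, so most of these ranges were seen by only some of their own probes. By length, 47.3% of probes were tested in ranges of 62 to 5176 bp, 52.0% in those of 5201 to 13076 bp, 51.2% in those of 13095 to 30101 bp and 48.1% in those of 30287 bp or more. By chromosome the tested share ran from 43.9% on chromosome 16 to 57.8% on chromosome 19. By letter it was 47.4% of F probes and 52.0% of R probes. Of the 1067 ranges with probes of both letters, 777 (72.8%) had a tested probe on each, 121 on F only and 128 on R only. About 95% of members lay at or below the 75th percentile of their array, between 94.7% and 95.1% on each.

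The brightest members did not differ between the groups beyond the test. chr17:17481706-17482457 (letter R), a range of 752 bp, held the brightest probe, at 7.03, 6.75 and 6.69 in the knockout arrays and 6.98, 7.11, 7.23 and 7.07 in the controls, so the groups overlapped (adjusted p = 0.567). A second probe of that range was also among the brightest 5, with chr4:141100989-141106639 (R), chr4:136856064-136877219 (R) and chr6:116123643-116124550 (F). Their differences ran from -0.37 to -0.23 with adjusted p of 0.427 to 0.656. At chr4:136856064-136877219 (R) the groups did not overlap, at 6.25 to 6.45 against 6.51 to 6.96.

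By the flag of each array, more range probes were detected in the arrays labelled knockout. The share of members well above background was 48.9%, 56.0% and 57.3% on the knockout arrays and 42.4%, 42.2%, 40.4% and 38.2% on the controls, so the groups did not overlap. The means were 54.1% ± 4.52 (SD, n = 3) and 40.8% ± 1.96 (SD, n = 4), a gap of 13.3 percentage points with a two-sided exact permutation p of 0.0571, which is the smallest that 3 against 4 arrays allows. Other probes shifted the same way by less, from 59.4% to 61.8% in controls to 65.7% to 70.8%. The dimmest signal that earned the flag also differed: it was -6.21, -6.83 and -6.91 on the knockout arrays and -5.59, -5.57, -5.56 and -5.32 on the controls, and the median of the negative control spots was -9.06 to -8.31 against -7.70 to -7.39. Counted above 1 floor for all arrays (-5.32, the highest of the 7), the share of members was 39.9% to 40.4% on the knockout arrays and 40.3% to 41.6% on the controls. The gap was then -0.905 percentage points (two-sided exact permutation p = 0.114), and its direction was turned. Among the 5441 members flagged on all 7 arrays the median level was -2.84 in both groups, with SDs of 0.034 (n = 3) and 0.041 (n = 4).

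In the main fit few range probes differed between the groups, and most of those were higher in the arrays labelled knockout. The higher share of the calls depended on the processing: it was 84.6% in the main fit and 37.0% with each array's own floor. With no filter it was 6.58%, and with the replicate number as a block 52.4%. In the limma fit over all tested probes, 1.36% of all probes passed an adjusted p of 0.05, and 52 members did, which is 0.647% of the 8042 tested. Of these, 44 were higher in the knockout arrays (0.547% of members, against 0.838% of all probes) and 8 were lower (0.0995%, against 0.522% of all probes). Both shares lie below those of all probes, and no test of that gap was run. Among probes flagged on all 7 arrays, 28 members were higher (0.515%, against 0.588%) and 1 was lower (0.0184%, against 0.505%). The increases ran from 0.73 to 5.11 with a median of 1.48, and the decreases from -5.71 to -0.89. Of the 52, 21 (15 higher and 6 lower) were well above background in 1 group only, so they passed the filter only through the group where they are bright. That choice favours a difference, and their adjusted p-values are given as descriptions. All 52 had groups that did not overlap, as did 460 members with every knockout array above every control (5.72%, against 5.3% of all probes) and 258 with every one below (3.21%, against 5.98%). Without knockout replicate 3 the higher count was 22, of which 21 were among the 44, and over the single-array omissions the lower count ran from 4 (without knockout replicate 3) to 19 (without control replicate 4), with 5 without knockout replicate 1 or 2. Over all probes, the count without knockout replicate 3 was 154 higher and 97 lower, and 161 were lower without control replicate 4.

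The median difference over tested members was 0.027, against -0.026 over all tested probes, and 54.2% of members were above 0, against 45.9%. The quartiles of the members' differences were -0.17 and 0.23. A typical difference carried more error for members than for other probes, with a median standard error of 0.22 against 0.19. Tested members included 693 that passed on the 3 knockout arrays alone and 26 that passed on controls alone. Normalisation moved the median of the members: it was 0.074 after quantile normalisation and -0.094 after normexp background correction, so its sign is not fixed.

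The calls were gathered at few places. Ranges within 100 kb of each other were joined into 1576 loci, and 28 of these held a call. Of the 52 called probes 31 lay in 7 loci with at least 2 calls each, on chromosomes 2, 4, 10, 13, 15, 17 and 18, and 21 loci had a single called probe. By letter, 25 of 3871 tested F probes and 19 of 4167 tested R probes were higher, and 4 of each were lower. Within each of the 7 loci all called probes bore the same letter.

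The locus on chromosome 17 rose on the R letter. In chr17:29183003-29217681, a range of 34679 bp, all 4 tested R probes were higher in the knockout arrays, by 1.33 to 1.96. The probe with the largest change had levels of 0.68, 0.10 and 0.51 in the knockout arrays and -1.73, -1.64, -1.25 and -1.50 in the controls, a difference of 1.96 ± 0.19 (SE) with an adjusted p of 0.00241. For each of the 4 the lowest knockout array lay above the highest control. The overlapping range chr17:29192453-29216073 (R) had 1 of 2 tested probes called, which was dim on all controls (well above background on none of them) and at least 2.32-fold higher. It passed the filter through the knockout arrays alone. With the common floor described below it was at 1.03 (limma adjusted p = 0.0893), and the call was lost. Without knockout replicate 3 this call and that of the probe at 1.33 were lost, and without knockout replicate 2 the former. Both tested F probes of the longer range gave -0.14 and 0.24 with adjusted p of 0.834 and 0.903, and at an unadjusted p under 0.05 limma called 0 of them as well.

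From general knowledge of mm9 and not from the files, this range lies just upstream of Cdkn1a, where lincRNA-p21 is made from the strand opposite to Cdkn1a. Cdkn1a encodes p21, an inhibitor of cyclin-dependent kinases and a classic p53 target. Both of its probes were higher in the knockout arrays. One went from 1.63 to 1.89 in controls to 2.82, 3.18 and 2.73 (difference 1.15, adjusted p = 0.0121). The other, for a second transcript, went from -4.93, -4.81, -4.64 and -4.22 in controls to -0.80, -0.90 and -0.62 (difference 3.88, adjusted p = 0.000151). The Cdkn1a window printed above, picked after the values were seen, belongs to a gene that rose in the same arrays as the range. It was not placed against the range, and no measurement here links the 2 changes.

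On chromosome 15, F probes of a short range and some F probes of the longer range around it were higher in the knockout arrays. All 3 probes of chr15:62046023-62082530 (F) were higher, by 1.03 to 1.54. The largest of the 3 changes was from -1.51, -1.68, -1.77 and -1.49 in controls to -0.01, 0.01 and -0.21 in the knockout arrays, 1.54 ± 0.14 (SE), adjusted p = 0.00165. In chr15:61984389-62102500 (F), a range of 118112 bp that contains it, 2 of 6 tested probes were higher. These went up by 2.54 ± 0.28 (SE, adjusted p = 0.00503) and 1.85 ± 0.15 (SE, adjusted p = 0.00115). The other 4 lay between -0.09 and 0.54. One probe of chr15:62090565-62091770 (F) rose by 1.04 (adjusted p = 0.014), and the other two of that range were at 0.74 and 1.84 without passing. The call at 1.04 was lost without knockout replicate 1 or 3, and that of the probe at 1.03 in the first range without knockout replicate 3. Of the 5 tested R probes of the longer range, limma called 0, also at an unadjusted p under 0.05, with differences from -0.30 to 0.62. The ranges nearest to its start, chr15:61870759-61938796 (F) and chr15:61919018-61935580 (F), stayed between -0.12 and 0.12.

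This stretch lies, again from general knowledge of mm9, in the Pvt1 gene downstream of Myc. The Myc probe did not pass, with a difference of -0.17 (limma adjusted p = 0.719). Pvt1 is a long noncoding RNA and host of several miRNAs. The array's own Pvt1 probes, named by accession, rose too: from -1.22, -1.29, -1.29 and -1.17 to -0.16, 0.12 and -0.18 for one (difference 1.17, adjusted p = 0.00575), and by 1.66 for the other (adjusted p = 0.00625). Among 37 annotated long noncoding RNAs, a list chosen with earlier results of these data known, 20 were on the array by accession and 19 were tested. Pvt1 was the 1 that passed, and the median difference over the list was 0.073, against -0.026 over all tested probes.

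The chromosome 13 locus had the most calls, 7, all on R probes. All 3 probes of chr13:28551902-28975446 (R), a range of 423545 bp, were higher, by 1.13 to 1.21, with adjusted p of 0.0229 to 0.0339. The probe with the smallest of these changes had levels of -0.96, -1.05 and -1.00 in the knockout arrays and -2.13, -1.81, -2.47 and -2.11 in the controls. Shorter ranges near its end had 2 of 3 probes called each: chr13:28947034-28949166 (R) at 1.20 to 1.27 and chr13:28952570-28953234 (R) at 1.21 to 1.33. Those spans cover all 3 probes of each range. One called probe of the first went from 1.09, 1.14, 1.18 and 1.02 in controls to 2.63, 2.01 and 2.28, and its groups did not overlap (adjusted p = 0.0153).

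Other R probes of the locus did not pass. Some had differences of similar size and others changed little. The 3 tested R probes of chr13:28477490-28985604, which spans the locus, were at -0.11 to 0.39. The probe of chr13:28653375-28975325 (R), inside the called long range, was at -0.10. Those of chr13:28506971-28511732 (R) were at 0.22 and 0.24, and that of chr13:28975118-28977236 (R) at -0.11. All 3 probes of chr13:28760289-28977218 (R) were at 0.84 to 1.35, with adjusted p of 0.0981 to 0.151, and both probes of chr13:28700385-28760363 (R) were at 1.02 and 1.08, with adjusted p of 0.155 and 0.0812. The 3 probes of chr13:28898970-28901714 (R) were at 1.65 to 1.77 with adjusted p of 0.351 to 0.443, and their controls were split: for the first of them controls 1 and 3 were at -7.83 and -7.79 and controls 2 and 4 at -5.71 and -5.78. Over the whole locus 28 tested R probes included the 7 calls, and 3 tested F probes lay between -0.35 and 0.43. From general knowledge the locus is that of 2610307P16Rik, beside Sox4, a transcription factor of progenitor cells. The Sox4 probes did not pass, at 0.38 and 0.94 (limma adjusted p = 0.403 and 0.476). The calls at this locus were near the threshold: leaving out any 1 of the 7 arrays ended at least 1 of the 7 calls. Their differences ran from 0.75 to 1.51 over all alternatives.

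On chromosome 10, most F probes of 2 nested ranges were higher in the knockout arrays. In chr10:83181374-83249774 (F), a range of 68401 bp, 4 of 5 tested probes were higher, by 1.27 to 1.40, and the fifth was at 1.53 with an adjusted p of 0.0655. The probe with the smallest p went from -0.82, -0.52, -0.98 and -0.53 in controls to 0.85, 0.59 and 0.57 in the knockout arrays, 1.38 ± 0.17 (SE), adjusted p = 0.00743. In chr10:83185606-83225506 (F) 2 of 3 probes were called, at 1.49 and 1.56, and the third was at 1.45. The call of the probe at 1.38 held without any 1 array, while each of the 7 arrays, left out alone, ended at least 1 of the other 5 calls. The tested probe of chr10:83181374-83249918 (F), whose range spans both, was at -0.22 (adjusted p = 0.796), well above background on all 7 arrays, and its groups overlapped. The 4 R probes of chr10:83181374-83249774 were at 0.19 to 0.64 (adjusted p 0.175 to 0.709), and limma called 1 of them at an unadjusted p under 0.05 but 0 after adjustment. The neighbouring range chr10:83325890-83402790 (R) was at -0.44 to -0.20.

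A short range on chromosome 4 rose by itself within a longer one. All 3 probes of chr4:149445201-149445902 (F), 702 bp long, were higher, by 4.72, 4.68 and 2.54. The first was at 0.70, -0.40 and 0.35 in the knockout arrays and at -4.62, -3.77, -4.71 and -4.92 in the controls, 4.72 ± 0.35 (SE) or 26.3-fold, with an adjusted p of 0.000651. The second was at 1.27, 0.18 and 0.89 against -3.96, -3.08, -4.10 and -4.46, and the third at -0.20, -0.89 and -0.59 against -3.21, -2.80, -3.24 and -3.17. All 3 were well above background on every array, and in none did the groups come near each other. The range lies inside chr4:149383134-149451259, whose 3 tested F probes were at -0.01 to 0.17 and whose 7 tested R probes were at -0.26 to 0.27. In that longer range limma called 0 of the 10, also at an unadjusted p under 0.05. The change was thus measured within 702 bp of a stretch of 68126 bp in which the other tested probes were near 0.

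The chromosome 18 locus had 2 called F probes and no other change that passed. Of the 3 probes of chr18:84737058-84737644 (F) only 1 was tested. That probe was at -4.32, -3.07 and -3.94 in the knockout arrays and at or under -7.43 on all 4 controls, where it was not well above background. The rise was at least 3.32-fold (limma adjusted p = 0.000651, and 0.0919 with the common floor described below). It passed the filter through the knockout arrays alone, so the adjusted p is a description. One probe of chr18:84735774-84760824 (F) was higher by 0.73 (adjusted p = 0.0471), a call that ended without any 1 of the 7 arrays. The 9 tested R probes of that range were all on the same side, at 0.28 to 0.75, with adjusted p of 0.305 to 0.636, and limma called 1 of them at an unadjusted p under 0.05.

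The chromosome 2 range was the only one of the 7 loci to fall. Both R probes of chr2:117781720-117937595, 155876 bp long, were lower in the knockout arrays. The first was at -3.48, -3.47, -3.73 and -3.54 in the controls and at -8.23, -8.88 and -8.34 in the knockout arrays, a difference of -4.93 ± 0.18 (SE), adjusted p = 7.9e-05. The second was at -3.92, -4.66, -4.82 and -4.64 against -8.32, -8.98 and -9.01, a difference of -4.26 ± 0.27 (SE), adjusted p = 0.000416. Neither was well above background on any knockout array, so the decreases are limits: at least 8.56-fold and at least 4.41-fold lower. Both passed the filter through the controls alone, so their adjusted p-values are descriptions. The limit sets the bright group's mean against, per array, the higher of the dimmest flagged signal and the probe's own. With the common floor described below, the first was at -1.77 (limma adjusted p = 0.000763) and the second at -0.81 (adjusted p = 0.231). The 1 tested F probe of the range was at 0.35 (adjusted p = 0.586), well above background on all 7 arrays. From general knowledge the range ends beside the start of Thbs1, which encodes thrombospondin 1, a matrix glycoprotein. The Thbs1 probe was also lower, from 3.95, 3.82, 4.31 and 3.58 in controls to -3.24, -2.26 and -3.31 (difference -6.85, adjusted p = 8.99e-05).

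The other decreases were single probes. chr1:183951156-183986156 (F) fell furthest, from -2.86, -3.44 and -2.45 in controls 1 to 3 to -8.35, -8.43 and -9.10, at least 13.3-fold (adjusted p = 0.000516). Its spot on control 4 was dropped as an outlier. chr7:71220656-71221612 (R) fell from -3.68, -2.51, -4.87 and -2.94 to -8.29, -8.13 and -8.18, at least 8.88-fold (adjusted p = 0.00425). chr11:95627874-95640824 (R) fell from -4.64 and -2.41 to -8.35, -8.95 and -9.10, at least 8.72-fold (adjusted p = 0.0255), with controls 1 and 4 dropped as outlier spots and so with 2 controls; this call was lost without any 1 of the knockout arrays. chr9:58301467-58323783 (F) fell by 2.00, at least 3.91-fold (adjusted p = 0.0248, with control 4 dropped), and was lost without knockout replicate 2 or 3 or control replicate 2 or 3. In these 4 the probe was not well above background on any knockout array. They passed the filter through the controls alone, so their adjusted p-values are descriptions. With the common floor described below, the chr1 probe was at -2.41 (limma adjusted p = 0.0301) and the chr7 probe at -1.82 (adjusted p = 0.295). On that floor the chr11 probe was at -1.80 (adjusted p = 0.493) and the chr9 probe at -0.69 (adjusted p = 0.313).

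The remaining decreases were smaller. chr19:53517903-53540753 (F) was the 1 member that was lower while well above background on all 7 arrays, at -1.67, -2.00 and -1.71 against -0.90, -0.94, -0.83 and -0.95, a difference of -0.89 ± 0.14 (SE), adjusted p = 0.0225. chr14:115423660-115463160 (F) was lower by -1.08 (adjusted p = 0.0445) at levels near background, flagged on 2 knockout arrays and 1 control. The knockout arrays lay below all controls in each. The first call was lost without any 1 array other than control 2, and the second without any 1 of the 7.

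The single largest increase was chr12:74140325-74142695 (F), 2371 bp long. Its probe was at -1.95, -3.04 and -2.51 in the knockout arrays and at -7.74, -7.67, -7.61 and -7.41 in the controls, where it was not well above background, which makes the rise at least 8.08-fold (adjusted p = 0.000127). In all, 15 of the 44 higher probes were not well above background on any control, 28 were so on all 7 arrays, and 1 on some controls. The 15, with the chr12 probe among them, passed the filter through the knockout arrays alone, so their adjusted p-values are descriptions. Others of the first kind were chr5:92340425-92342429 (R), at least 2.32-fold higher (adjusted p = 0.000719), chr6:82268824-82272977 (R), at least 2.73-fold (adjusted p = 0.0364), and chr3:93150619-93184368 (R), at least 3.30-fold (adjusted p = 0.0354). The chr6 probe was uneven among knockout arrays, at -3.41, -2.97 and -5.82, and so was the chr3 probe, at -2.49, -4.54 and -4.34. The chr6 call was lost without any 1 array other than knockout 3, and the chr3 call without knockout 2 or 3 or control 1, 2 or 4. chr9:20784567-20799942 (F) rose by at least 1.48-fold (adjusted p = 0.000516) and chr9:114412295-114418384 (R) at least 1.79-fold (adjusted p = 0.00245). The 9 higher probes not named so far were single calls too, with differences of 0.83 to 2.45 and adjusted p of 0.00127 to 0.0428; 7 were well above background on no control and 2 on all arrays. The dimmest signal that earned the flag was lower on the knockout arrays, as given above. With the common floor, to which all lower values were raised, the chr12 probe was at 2.83 (adjusted p = 0.00688), while chr5:92340425-92342429 was at 1.03 (adjusted p = 0.177), chr6:82268824-82272977 at 1.43 (adjusted p = 0.415) and chr3:93150619-93184368 at 1.53 (adjusted p = 0.328). On that floor chr9:20784567-20799942 was at 0.38 (adjusted p = 0.424) and chr9:114412295-114418384 at 0.65 (adjusted p = 0.305). The higher count there was 29, of which 23 were among the 44, and it was 212 over all probes.

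Whether probes of 1 range changed unequally was asked within arrays, by fitting the difference of 2 probes' log2 values. Of 15812 pairs of tested probes of the same range, 13 (0.0822%) passed an adjusted p of 0.05: 8 of 6727 pairs of opposite letters and 5 of 9085 pairs of the same letter, from 6 ranges. In 9 of the 13 a probe was well above background in 1 group only and so was selected by that group, which leaves 4 others. In chr2:117781720-117937595 the F probe and both R probes parted by 5.28 ± 0.23 (SE, adjusted p = 0.00115) and 4.61 ± 0.26 (SE, adjusted p = 0.00367). Both R probes were flagged on no knockout array, so these pairs are among the 9 and their adjusted p-values are descriptions. With the common floor the R probes themselves were at -1.77 (limma adjusted p = 0.000763) and -0.81 (adjusted p = 0.231). In chr9:20784567-20799942 the F probe at 2.68, flagged on no control, gave 5 of the 13 pairs, with all 4 R probes, at -0.03 to 0.44, and an F probe at 0.13 (adjusted p 0.016 to 0.039). With each array's own floor that probe was at 0.57 (adjusted p = 0.196) and with the common floor at 0.38 (adjusted p = 0.424). In chr11:95627874-95640824 an R probe at -5.28, flagged on no knockout array, parted from an F probe at 0.85 (adjusted p = 0.0484).

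Probes of the same letter parted as well. In chr15:61984389-62102500 the F probes at 2.54 and 1.85 each parted from another F probe, at 0.54 and -0.05 (adjusted p = 0.0213 and 0.0463), and the second also from an R probe at 0.10 (adjusted p = 0.0303). In chr4:149445201-149445902 the probes at 4.72 and 2.54 parted (adjusted p = 0.0484), and in chr9:114412295-114418384 the R probes at 2.54, flagged on no control, and 0.21 (adjusted p = 0.0262). On chromosome 17 the 8 pairs of opposite letters differed (F minus R) by -2.10 to -1.09 with adjusted p of 0.0898 to 0.52, and on chromosome 10 the 20 such pairs of chr10:83181374-83249774 by 0.62 to 1.35 with adjusted p of 0.2 to 0.759, so at neither was the gap between letters shown by this test. The count of 13 was 1 without knockout replicate 1, 21 without control replicate 4, and 3 to 7 without any other single array. Of the 2 chromosome 2 pairs, 1 passed without knockout replicate 1, and both passed without any other array. Leaving out an array does not undo the selection of their R probes by the controls. Neither pair passed with the replicate block, and the filter on all arrays leaves both out.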

How the data were processed

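RNA was measured on 7 one-colour Agilent arrays, 3 labelled knockout and 4 control. The authors deposited scanner files of spot intensity, background-corrected per the file headers with Agilent Feature Extraction 10.7.3.1, and a series table of log2 values whose scale and centring are not stated. Its differences between arrays matched those of the scanner values with a slope of 1 over 34007 probes, and its column medians were -0.0202 to 0.

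From the processed signal, log2 was taken and the 75th percentile of the array's non-control spots subtracted; it lay at 2671 to 3825 intensity units. Spots with an outlier flag were dropped and repeated spots of a probe averaged (a member probe has 1 spot). Probes with the well-above-background flag on 3 or more of the 7 arrays were fitted with lmFit and eBayes (limma 3.58.1, R 4.3.3), 34130 in all, and p-values were adjusted by Benjamini-Hochberg over all of them, with a threshold of 0.05. The fit, and that of pairs, was tested on simulated data. Array design is mm9 per the file headers; genes were named by accession through RefSeq of GRCm38.p6, and no coordinates were converted. The number of arrays limits the precision.

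The members and lists were chosen with earlier results of these data known. Named were the largest changes in each direction (up to 10), ranges with at least 2 calls, called ranges within 100 kb of each other, the 5 brightest, and the pairs of opposite letter. The genes Gata2, Cdkn1a, Thbs1, Myc and Sox4 were named besides. The marker lists of B cells, neutrophils, erythroid cells, megakaryocytes and stroma had no gene past the adjusted threshold in limma, and 0, 6, 0, 3 and 1 at an unadjusted p under 0.05. Alternatives were other normalisations, background corrections, filters, floors, weights, thresholds, a block on replicate number and leaving out each array.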

Additional observations from a re-analysis of the deposited data

Results flagged for a closer look

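In chr4:149445201-149445902 (F) the third probe read -2.80 on control 2, apart from the other three controls at -3.24 to -3.17. The gap was 0.852 of the controls' whole range, above Dixon's critical value for 4 samples. Of 47 control groups checked 1 stood apart this way, and chance gives about 1 in 20. The knockout arrays, at -0.89 to -0.20, lay above all 4 controls. The control 2 array was also the brightest control for both other probes of the range, at -3.77 and -3.08, without passing this limit there.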

How the results depend on the processing

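No named probe changed direction in any alternative run, and of the counts the lower ones moved most. The 44 higher and 8 lower members became 225 and 3196 with no filter, 29 and 5 with the common floor, 179 and 51 with array weights, and 19 and 4 at an adjusted p under 0.01. Over all probes, members included, 286 higher and 178 lower became 847 and 9267 with no filter. These were 212 and 163 with the common floor, and 757 and 558 with array weights. The higher count was 11 with the replicate number as a block, with 10 lower (81 and 71 over all probes). The lower count was 28 with normexp (43 higher, so 60.6% of calls were higher instead of 84.6%) and 85 with each array's own floor (50 higher, so 37.0%). It was 5 among probes above background on all arrays and 2 among those so on 2 arrays of each group. Over all probes these 4 lower counts were 300, 398, 194 and 147. Leaving out 1 array gave 22 to 51 higher, 4 to 19 lower, and 1 to 21 pairs. Over all probes it gave 154 to 247 higher and 97 to 161 lower. The filter was not redone, and 8035 to 8042 members and 15792 to 15812 pairs could be fitted. Pairs numbered 22 with normexp, 3 on all arrays and 0 in limma with the replicate block, where 1180 had an unadjusted p under 0.05. The median difference was 0.074 with quantile normalisation, 0.096 with median scaling, -0.094 with normexp and -0.16 with no filter. The detection gap of 13.3 points was 11.6 to 15.8 without 1 array and turned to -0.905 above a common floor, an alternative chosen after seeing the data. The causes of these moves were not tested.

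Replicate numbers did not pair the samples: deviations of same-numbered arrays correlated at -0.0644, -0.0851 and -0.0248. With the block, 17 of the 48 named probes kept their side of the threshold: the 5 brightest, which passed in neither fit, and 12 that passed in both, among them the first and second chromosome 4 probes. The Gata2, Thbs1 and second Cdkn1a probes passed in all 20 alternatives. The first Cdkn1a probe and both Pvt1 probes were lost with the block. With the common floor 19 of the 48 lost their call.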
